A study of Homo sapiens with 8 samples.

Results

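The members described here are FKBP5 and 7 further genes of glucocorticoid receptor signalling in A375 cells, an established human melanoma line. They are NR3C1, the receptor itself, and its known target genes TSC22D3, PER1, KLF9, SGK1, ZBTB16 and CRISPLD2. FKBP5 was selected on its own measured values, because its signal was low in cells with HSF1 knockdown, and the other 7 were chosen by what is known of the receptor, to see whether they followed FKBP5. These 8 genes stand among 19775 genes with a probe set annotated to 1 symbol. Of the 8, 7 had such probe sets (20 in all, of which 14 were bright enough to test). PER1 had none, because its 4 probe sets carry a second symbol, and no value is given for it. ZBTB16 had 1 probe set, which was at 0.4 to 8.5 signal units and below the median signal of every array. So 6 members were tested among 12672 genes that reached the median of their array on at least 2 of the 8 arrays.

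The study used short hairpin RNAs that Doxycycline switches on, in polyclonal lines that carried either shHSF1, 1 hairpin against the heat shock factor HSF1, or shNTC, a non-targeting hairpin. The 8 arrays formed 4 groups of 2. The group shHSF1 Dox HSP990 had the induced HSF1 hairpin and the HSP90 inhibitor NVP-HSP990 at 100 nM for 3 h. The group shHSF1 HSP990 had the same line and inhibitor without Doxycycline in its title. The group shNTC Dox DMSO had the non-targeting line with Doxycycline and 0.1% DMSO as vehicle, and the group shNTC DMSO had that line with vehicle alone. All cells were kept for 3 d in medium with 10% FCS before treatment, and the labels name no added glucocorticoid. The labels' growth protocol names 100 ng/ml Doxycycline for all lines, whereas the titles mark only 4 of the 8 arrays with it. The groups follow the titles. Cells of the shHSF1 line with DMSO and of the shNTC line with NVP-HSP990 were not analysed here, so the inhibitor and the hairpin line cannot be told apart where shHSF1 HSP990 is set against shNTC DMSO. The labels do not state whether replicate arrays were separate cultures. The p-values below therefore reflect array-to-array spread that may be no more than technical.

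The glucocorticoid receptor is a transcription factor that waits in the cytoplasm in a complex with HSP90 and its cochaperones. Hormone binding lets it enter the nucleus and bind response elements near its target genes, where it raises most of the genes named above in many tissues. FKBP5 encodes FKBP51, a peptidyl-prolyl isomerase that sits on the HSP90 complex, lowers the receptor's affinity for hormone and so closes a negative feedback loop, while its relative FKBP4 encodes FKBP52, which favours nuclear entry. HSF1 is the transcription factor that heat shock and HSP90 inhibition activate, and it binds heat shock elements, inverted repeats of GAA, upstream of chaperone genes.

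The knockdown and the inhibitor were visible on the arrays. HSF1 itself (202344_at) had signals of 5.5 and 7.3 in shHSF1 Dox HSP990, against 99 and 42.5 in shHSF1 HSP990, and lay at 36.6 to 47.9 in the 4 shNTC arrays. HSPA6, an inducible HSP70 gene, had 18.3 and 12.4 in shHSF1 Dox HSP990, 1680.8 and 1328.5 in shHSF1 HSP990, and 5.1 to 15.5 in the shNTC arrays. Of the 7 melanocyte lineage markers with a probe set, 3 (MITF, SOX10, S100B) were at or above the median on all 8 arrays, while PMEL, MLANA, TYR and TYRP1 were below it on all 8. The 7 summed to 1964 to 2430 signal units in shHSF1 Dox HSP990, against 2637 to 2703 in shHSF1 HSP990, 2070.2 to 2799 in shNTC Dox DMSO and 2315 to 2767 in shNTC DMSO. None of the 3 hepatocyte and 3 leukocyte markers reached that level on all arrays. Of 4 epithelial markers, KRT18 (1864 to 2308) and KRT8 (65.4 to 96.8) did, while CDH1 was below it on all 8. The 4 fibroblast markers summed to 816 to 880 signal units in shHSF1 Dox HSP990, against 571 to 606 in shHSF1 HSP990, 472 to 544 in shNTC Dox DMSO and 543 to 557 in shNTC DMSO. LUM and COL1A1 were above the median on all arrays and COL1A2 on none, and the part of all these markers in the results below was not tested. The 3′ to 5′ ratio of the ACTB control probe sets, a sign of RNA length, was 4.73 to 18.9 on most arrays. In the knockdown comparison it was 10.3 and 5.63 in shHSF1 Dox HSP990 and 18.9 and 8.27 in shHSF1 HSP990, so RNA length varied there too. It was highest, at 46.8, on replicate 2 of shNTC Dox DMSO, so the members' changes that use this array are also given without it.

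The stretches of DNA ahead of FKBP5, TSC22D3 and HSPA6 are shown because FKBP5 is the member that changed, TSC22D3 is the member whose window held a receptor motif, and HSPA6 is a gene that was high only on the 2 arrays with the inhibitor and no induced HSF1 hairpin. They come from RefSeq on GRCh38.p14, with 1 start site per gene (for these 3 genes the outer end of the gene), so that further start sites inside a gene were not searched. Capitals mark matches to the heat shock element dimer (GAANNTTC or TTCNNGAA) or to the core of the glucocorticoid response element (ACANNNTGT), read on both strands. The FKBP5 stretch (chr6:35728584-35728833, minus strand, 250 bases ending just before the start) holds neither.
FKBP5: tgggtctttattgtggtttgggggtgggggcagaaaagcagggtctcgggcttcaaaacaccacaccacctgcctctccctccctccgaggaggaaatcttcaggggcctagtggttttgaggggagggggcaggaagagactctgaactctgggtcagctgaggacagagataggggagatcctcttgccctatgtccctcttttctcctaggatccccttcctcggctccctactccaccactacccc
The HSPA6 stretch (chr1:161524290-161524539, plus strand, the same 250 positions) holds 3 dimer matches, 2 of which overlap to form 3 repeats in a row.
HSPA6: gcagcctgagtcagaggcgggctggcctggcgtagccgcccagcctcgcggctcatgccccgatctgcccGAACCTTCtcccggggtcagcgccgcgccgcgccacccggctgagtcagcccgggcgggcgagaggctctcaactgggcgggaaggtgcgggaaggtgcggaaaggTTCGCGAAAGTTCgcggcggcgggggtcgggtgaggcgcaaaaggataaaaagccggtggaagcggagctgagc
The TSC22D3 stretch (chrX:107775984-107776013, minus strand, 30 bases around the start) holds 1 match to the receptor core.
TSC22D3: tcccctctagggtaatttACATGCTGTcat
Over windows of 250 bases before to 50 bases after the start, the dimer was in 13.7% of 27305 promoters and the receptor core in 5.45%. Of the 7 members with a window (all but ZBTB16), 0 held the dimer and 1, TSC22D3, held the core. A match is a run of letters and not a measured binding site, and a window without one says only that these letters are not in it.

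FKBP5 (chr6:35573590-35728583) was low on both arrays of the knockdown with inhibitor and similar across the other 3 groups. Its brightest probe set, 224840_at, which stands for the gene, had signals of 104.4 and 130.7 in shHSF1 Dox HSP990, 468.1 and 505.6 in shHSF1 HSP990, 441.8 and 428.6 in shNTC Dox DMSO, and 531.9 and 489.6 in shNTC DMSO. The mean signal was thus 118 ± 18.6 in shHSF1 Dox HSP990 against 487 ± 26.5 in shHSF1 HSP990 (SD, n = 2 each), 4.14 times lower, and no array of the first group came near any array of the others. On the log2(signal + 16) scale, on which all changes here are given, FKBP5 was at −1.92 (SE 0.16) in shHSF1 Dox HSP990 relative to shHSF1 HSP990, the 16th lowest of 12672 genes. This is the value that chose FKBP5, so it is a description with no test.

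A second FKBP5 probe set followed the same pattern. Probe set 224856_at had 18.6 and 17.8 in shHSF1 Dox HSP990, 66.6 and 80.9 in shHSF1 HSP990, 91.4 and 57.9 in shNTC Dox DMSO, and 84.3 and 72.4 in shNTC DMSO. Both knockdown arrays lay below all 6 others, and the difference from shHSF1 HSP990 was −1.39 on the log2 scale, or 4.05 times in mean signal. The added 16 units understate changes of dim probe sets such as this one. The third probe set, 204560_at, was dim throughout, at 6.6 and 6.8 in shHSF1 Dox HSP990 and at 7.7 to 17.1 on the 6 other arrays.

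FKBP5 in shHSF1 HSP990 was close to its level in shNTC DMSO, groups that differ in both inhibitor and hairpin line. It was at −0.067 (SE 0.16) in shHSF1 HSP990 relative to shNTC DMSO, with overlapping arrays, whereas HSPA6 was at 5.78 (SE 0.24) in the same comparison. FKBP5 was at −1.76 (SE 0.16) in shHSF1 Dox HSP990 relative to shNTC Dox DMSO, the 25th lowest of 12672 genes, and at −1.78 (SE 0.20) without the array with the high ACTB ratio. Both comparisons share arrays with the one that chose FKBP5 and carry no test for it.

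The comparison that shares no array with that choice is Doxycycline in the shNTC line. There FKBP5 was 442 and 429 with Doxycycline against 532 and 490 without (−0.22, SE 0.16, limma adjusted p = 1, and −0.20 without the array with the high ACTB ratio), so it did not pass the test, although the arrays did not overlap on 224840_at. Non-overlapping arrays were found for 28.4% of all genes in this comparison, and the arrays of 224856_at overlapped. No gene was called there (0.0% of 12672) at an adjusted p under 0.05 by limma or by the methods' t-test, while 306 genes by limma and 588 by the methods' t-test had an unadjusted p under 0.05. The 95% interval of the FKBP5 difference was −0.58 to 0.14. The change with Doxycycline in the shHSF1 line under inhibitor minus that in the shNTC line under DMSO was −1.70 (SE 0.23), or −1.72 without the array with the high ACTB ratio, a value that contains the choosing comparison and also differs in inhibitor between its 2 terms.

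**Figure D1:**
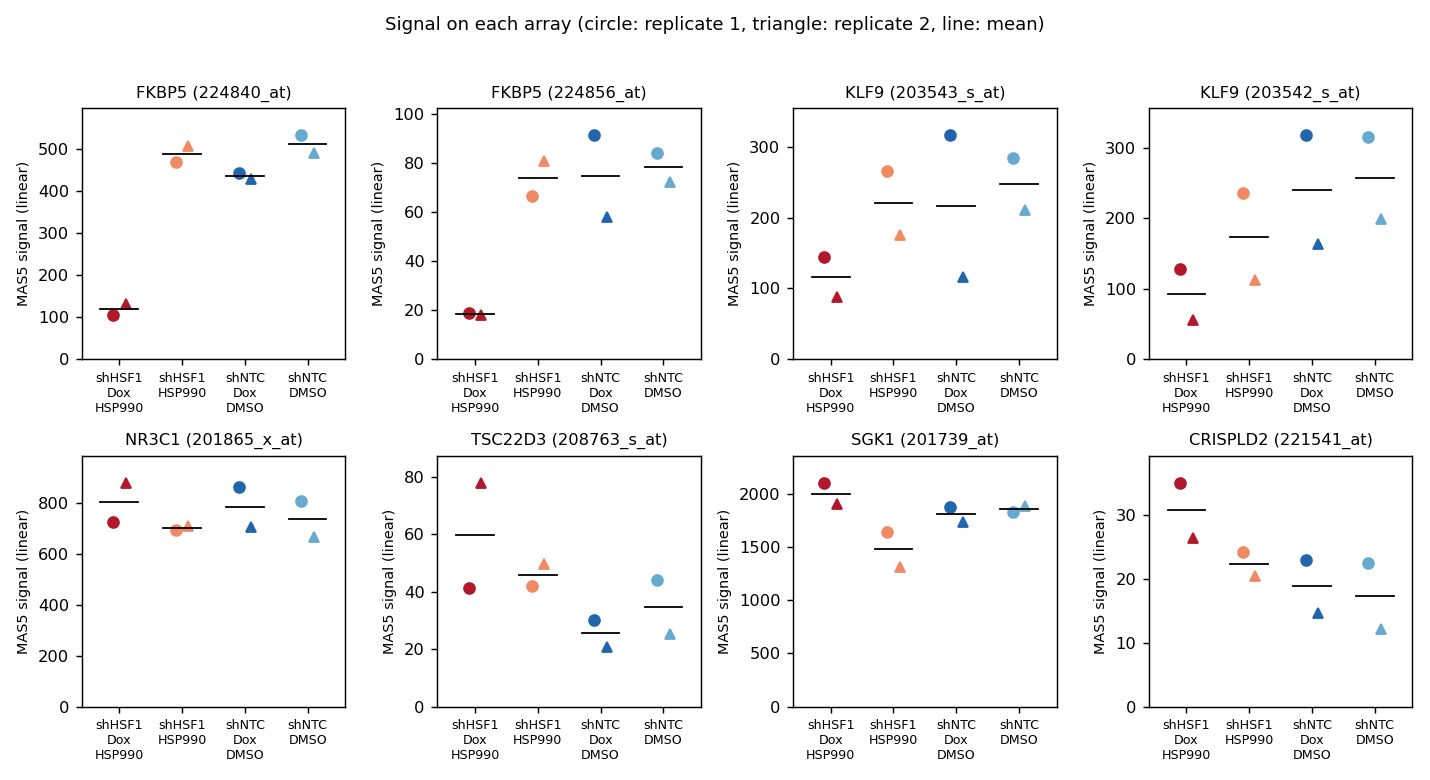
MAS5 signal (linear scale from 0, a separate axis for each panel) of 8 probe sets of 6 members on each of the 8 arrays, with circles for replicate 1, triangles for replicate 2 and a line at the mean of each group. Both FKBP5 probe sets sit lowest on the 2 arrays of shHSF1 Dox HSP990 (104.4 and 130.7, and 18.6 and 17.8), whereas the other members show no such gap from all other groups. FKBP5 was chosen for its low value, so this contrast is no test.

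Of the 6 members tested, 1 (FKBP5) was called at an adjusted p under 0.05 in the knockdown comparison, shHSF1 Dox HSP990 against shHSF1 HSP990. The share over all genes was 2.84%, and 1.85% were called lower. The groups' arrays did not overlap for 5 of the 6 members, 3 higher and 2 lower, against 43.3% of all genes. These members were chosen with this comparison known, so nothing is read from these counts, and the values of the 5 other members follow as a description. Their median change was 0.25 (range −0.85 to 0.44), against 0.0015 over all genes.

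NR3C1 (chr5:143277931-143435512), which encodes the receptor, differed little between groups. Probe set 201865_x_at had 727.0 and 878.9 in shHSF1 Dox HSP990, 694.5 and 709.4 in shHSF1 HSP990, 864.6 and 706.3 in shNTC Dox DMSO, and 807.1 and 667.4 in shNTC DMSO. All 8 arrays lay within 0.39 of each other on the log2 scale. The knockdown difference was 0.18 (SE 0.17, 95% interval −0.19 to 0.56). Of its 4 bright probe sets, 3 were at 0.18 to 0.24 in that comparison and 216321_s_at was at −0.12, with signals of 793.3 and 652.0 in shHSF1 Dox HSP990 against 804.3 and 757.9 in shHSF1 HSP990. The sign therefore depended on the probe set.

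KLF9 (chr9:70384604-70414657), a Krüppel-like transcription factor that glucocorticoids induce in many tissues, was the other member with lower arrays in the knockdown. Probe set 203543_s_at had 144.9 and 87.0 in shHSF1 Dox HSP990, 266.5 and 174.8 in shHSF1 HSP990, 316.8 and 115.8 in shNTC Dox DMSO, and 284.0 and 211.4 in shNTC DMSO. Replicate 2 was the lower array in 4 of 4 groups, and the lowest array without knockdown (115.8, the one with the high ACTB ratio) lay between the 2 knockdown arrays. The knockdown difference was −0.85 (SE 0.40, 95% interval −1.73 to 0.03), the 266th lowest of 12672 genes. It lay between −1.17 and −0.53 with 1 array left out at a time.

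The second bright KLF9 probe set, 203542_s_at, had 127.7 and 55.7 in shHSF1 Dox HSP990, 236.5 and 111.6 in shHSF1 HSP990, 318.3 and 163.3 in shNTC Dox DMSO, and 316.4 and 198.9 in shNTC DMSO. It gave −0.82 for the knockdown, with overlapping arrays. A dim probe set, 230636_s_at, had 6.4 and 3.6 in shHSF1 Dox HSP990 against 12 and 7.9 in shHSF1 HSP990. All 3 probe sets that passed the filter thus pointed lower. Probe sets 203541_s_at and 228474_s_at were below the median on every array, at −0.071 and 0.035 in the knockdown comparison. The spread between replicates of KLF9 was large, with replicate 2 the lower array. Between arrays of the same number the knockdown differences were close, at −0.81 and −0.89 on 203543_s_at and at −0.81 and −0.83 on 203542_s_at. With a term for the replicate number in the fit, the standard error of the KLF9 difference was 0.22. The titles name no shared batch, so the arrays were not taken as pairs.

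SGK1 (chr6:134169256-134318112), a kinase that raises sodium transport and cell survival, pointed the other way. Its single probe set had 2102.4 and 1903.4 in shHSF1 Dox HSP990, 1641.7 and 1313.2 in shHSF1 HSP990, 1880.5 and 1736.7 in shNTC Dox DMSO, and 1832.2 and 1884.8 in shNTC DMSO. The knockdown arrays were above both inhibitor arrays (0.44, SE 0.16, 95% interval 0.08 to 0.80) and above all shNTC arrays by a smaller margin. The interval is not adjusted for the number of genes tested, and SGK1 was not called. The 2 arrays of shHSF1 HSP990 were the lowest of the 8.

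TSC22D3 (chrX:107713221-107775988), which encodes GILZ, a leucine zipper protein of the anti-inflammatory response, had 41.4 and 77.9 in shHSF1 Dox HSP990, 42.1 and 49.6 in shHSF1 HSP990, 30.3 and 20.7 in shNTC Dox DMSO, and 44.2 and 25.3 in shNTC DMSO on 208763_s_at. The 2 knockdown arrays differed more from each other than from the inhibitor arrays. The knockdown difference was 0.25 (SE 0.28, 95% interval −0.36 to 0.86) and became −0.11 without replicate 2 of shHSF1 Dox HSP990. Its 2 further probe sets were below the median on every array.

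CRISPLD2 (chr16:84819985-84909508), a secreted protein that glucocorticoids induce in airway smooth muscle, was dim. Probe set 221541_at had 35.0 and 26.4 in shHSF1 Dox HSP990, 24.2 and 20.5 in shHSF1 HSP990, 23.0 and 14.7 in shNTC Dox DMSO, and 22.5 and 12.2 in shNTC DMSO. The knockdown arrays were the 2 highest of the 8, with a difference of 0.28 (SE 0.22, 95% interval −0.20 to 0.76) from shHSF1 HSP990. PER1 (chr17:8140472-8152404), a circadian repressor, and ZBTB16 (chr11:114059711-114256770), a zinc finger transcription factor also known as PLZF, gave no usable value.

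In the knockdown comparison the lower bounds of the 95% intervals of NR3C1, SGK1, TSC22D3 and CRISPLD2 ran from −0.36 to 0.08, and that of KLF9 was −1.73. FKBP5 was chosen for its low value in this comparison. Setting these intervals against that of FKBP5 is therefore no test, and nothing is concluded from it.

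**Figure D2:**
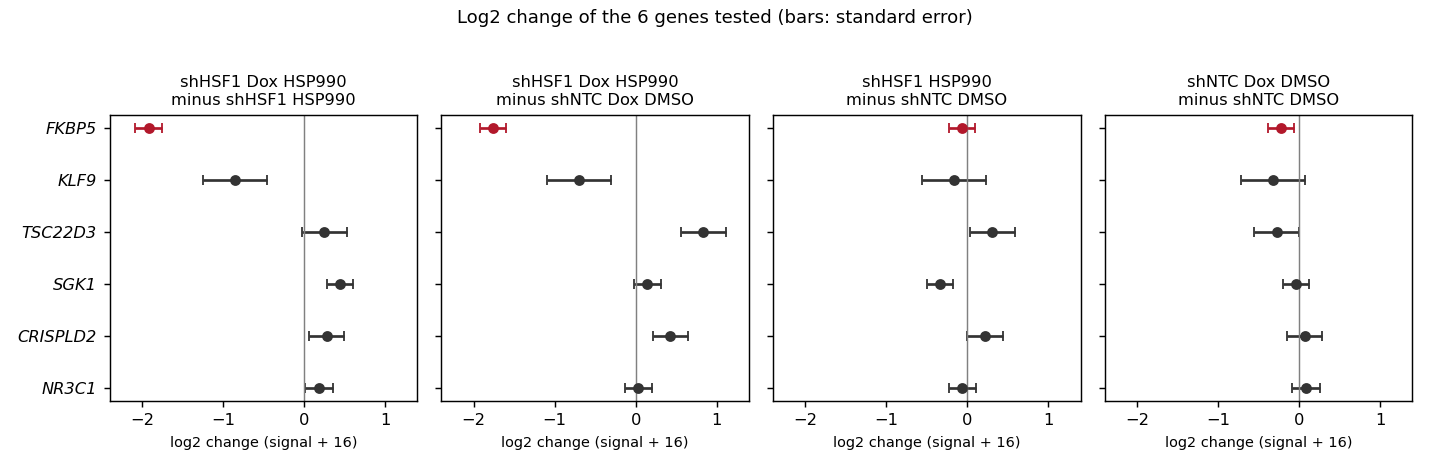
Log2 change (horizontal axis, signal + 16) of the 6 members tested in the 4 comparisons, with bars for the standard error. FKBP5 stands at −1.92 and −1.76 in the 2 panels that hold shHSF1 Dox HSP990 and near 0 in the others, KLF9 is at −0.85 and −0.70 with wide bars, and the remaining 4 members lie between 0.03 and 0.83 in those 2 panels.

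The groups shHSF1 HSP990 and shNTC DMSO differ in both inhibitor and hairpin line. Between them 0 of the 5 members other than FKBP5 passed the test, against 0.221% of all genes (28 of 12672). No member had an unadjusted p under 0.05 by limma. SGK1 had 1641.7 and 1313.2 in shHSF1 HSP990 against 1832.2 and 1884.8 in shNTC DMSO (−0.34, SE 0.16, limma adjusted p = 1), and was the only one of the 5 with non-overlapping arrays, a state that 33.2% of all genes shared. TSC22D3 was at 0.31, CRISPLD2 at 0.22, NR3C1 at −0.063 and KLF9 at −0.17, each with overlapping arrays. With so few genes called, these values show only that no change was detectable between 2 arrays and 2. The interval for NR3C1 was −0.44 to 0.31 and that for KLF9 was −1.05 to 0.71.

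With Doxycycline in the shNTC line the same 5 members had overlapping arrays and 0 were called (adjusted p = 1 for each by limma). Over all genes 0.0% were called and 28.4% had non-overlapping arrays, so nothing is read from these counts. The members' changes in shNTC Dox DMSO relative to shNTC DMSO were 0.089 for NR3C1, 0.071 for CRISPLD2, −0.040 for SGK1, −0.27 for TSC22D3 and −0.32 for KLF9. Without replicate 2 of shNTC Dox DMSO, the array with the high ACTB ratio, they were 0.23 for NR3C1, 0.24 for CRISPLD2, 0.017 for SGK1, −0.11 for TSC22D3 and 0.35 for KLF9, so that SGK1 and KLF9 turned sign. KLF9 was at −0.99 without replicate 1 of that group.

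The knockdown with inhibitor against Doxycycline alone, shHSF1 Dox HSP990 against shNTC Dox DMSO, combines the knockdown, the inhibitor and the line. Here 5.83% of all genes were called (739 of 12672, 2.99% lower). FKBP5, whose knockdown arrays are those that chose it, carries no test here. Of the 5 other members 0 were called, while 3 had non-overlapping arrays, against 44.5% of all genes. TSC22D3 was the highest of them, with 41.4 and 77.9 in shHSF1 Dox HSP990 against 30.3 and 20.7 in shNTC Dox DMSO (0.83, SE 0.28, limma adjusted p = 0.121). It was at 0.67 without the array with the high ACTB ratio. The mean of all its probe sets, which include dim ones, gave 0.24 (limma adjusted p = 0.512). CRISPLD2 was at 0.43 (SE 0.22, adjusted p = 0.320) and SGK1 at 0.15 (adjusted p = 0.680). Without the array with the high ACTB ratio CRISPLD2 was at 0.25 (adjusted p = 0.684) and SGK1 at 0.088 (adjusted p = 0.839). NR3C1 was at 0.032 (adjusted p = 0.945), or −0.11 (adjusted p = 0.818) without that array, and KLF9 at −0.70 (SE 0.40, adjusted p = 0.371). KLF9 depended on the 2 shNTC Dox arrays, being at −1.37 (adjusted p = 0.0811) without the array with the high ACTB ratio and at −0.034 without the other one, and its probe set 203542_s_at gave −1.27 (adjusted p = 0.144).

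A longer list of 35 known receptor targets other than the members was read in the same way, of which 25 were tested. In the knockdown comparison 1 of the 25 was called higher and 0 lower, near the 2.84% of all genes called. Their median change was 0.020 and the lowest was CDKN1C at −0.84. FKBP5 was chosen for its low value in this comparison, so setting these values against it is no test. The gene called was TNFAIP3, which encodes the NF-κB inhibitor A20. It had 260.3 and 389.2 in shHSF1 Dox HSP990, 104.8 and 145.7 in shHSF1 HSP990, 178.9 and 137.9 in shNTC Dox DMSO, and 192.3 and 174.6 in shNTC DMSO (knockdown change 1.26, SE 0.24, limma adjusted p = 0.0209). Its arrays under knockdown were the 2 highest of the 8 and the inhibitor arrays included the lowest. The call was lost without replicate 2 of shHSF1 Dox HSP990 or replicate 1 of shHSF1 HSP990 (highest adjusted p = 0.153).

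With the inhibitor, 1 of the 25 was called higher and 0 lower, beside 0.221% of all genes. RGS2, a brake on G protein signalling, had 2592.3 and 2269.6 in shHSF1 HSP990 against 674.7 and 695.6 in shNTC DMSO (1.80, SE 0.16, limma adjusted p = 0.00121). It had 1686.9 and 1372.6 in shHSF1 Dox HSP990 and 751.1 and 878.9 in shNTC Dox DMSO, so all 4 arrays with the inhibitor lay above all 4 without it. The former are also all of the shHSF1 line and the latter all of the shNTC line, so inhibitor and line cannot be told apart. The knockdown change of RGS2 was −0.67 (SE 0.16, limma adjusted p = 0.0606), which did not pass.

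Against shNTC Dox DMSO, 6 of the 25 were called higher and 2 lower in shHSF1 Dox HSP990, beside 5.83% of all genes, with a median change of 0.054. The 4 with the largest changes were CDKN1C, GADD45B, DUSP1 and TNFAIP3. CDKN1C, the cell cycle inhibitor p57, had 95.3 and 34.6 in shHSF1 Dox HSP990 against 295.3 and 190 in shNTC Dox DMSO (−1.75, SE 0.42, adjusted p = 0.0366), but the mean of all its probe sets gave −0.44 (adjusted p = 0.113). GADD45B, a stress sensor, had 255.8 and 321.3 in shHSF1 Dox HSP990 against 89.4 and 111.1 in shNTC Dox DMSO (1.39, SE 0.21, adjusted p = 0.00512). DUSP1, a phosphatase that switches off MAP kinases, had 180.2 and 134.5 in shHSF1 Dox HSP990 against 67 and 78.1 in shNTC Dox DMSO (0.96, SE 0.22, adjusted p = 0.0320), and the mean of all its probe sets gave 0.36 (adjusted p = 0.128). TNFAIP3 was at 0.95 (SE 0.24, adjusted p = 0.0454), and at 0.80 (adjusted p = 0.0545) for that mean. KLF15 also lost its call under the mean of its probe sets, at 0.34 (adjusted p = 0.128). The remaining called genes were RGS2, KLF15 and LCN2, higher, and TIPARP, lower. LCN2 had 24.3 and 26.3 in shHSF1 Dox HSP990 against 5.1 and 9.6 in shNTC Dox DMSO, the latter below their array medians. It passed the filter on dim genes only through shHSF1 arrays, where it was high, so its call adds no support to the count of 6. Most of the 8 calls were lost with 1 array left out. Without replicate 2 of shNTC Dox DMSO, 2 of the 25 were called higher, GADD45B and RGS2, and 0 lower. Only GADD45B of the 8 was called with each of the 8 arrays left out in turn, at changes of 1.23 to 1.54.

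**Figure D3:**
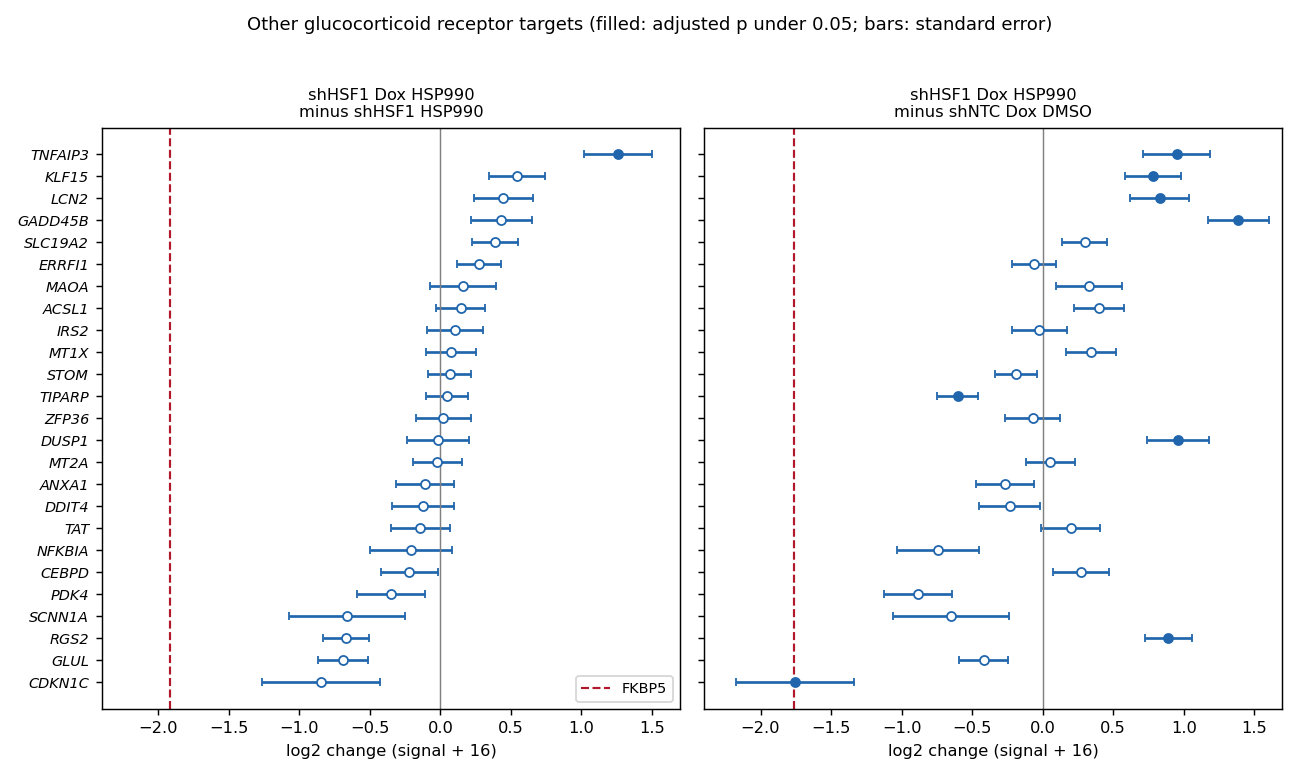
Log2 change (horizontal axis, signal + 16) of the 25 tested receptor targets other than the members, in shHSF1 Dox HSP990 relative to shHSF1 HSP990 on the left and to shNTC Dox DMSO on the right, with bars for the standard error, filled points for an adjusted p under 0.05 and a dashed line at FKBP5. On the left the one filled point is TNFAIP3 at 1.26. On the right 6 filled points lie above 0 and 2 below, of which CDKN1C is at −1.75. FKBP5 was chosen for its low value on the left, so its distance from the points is no test.

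Of the 13 tested relatives of FKBP5 in its family, 0 were called in any of the 4 comparisons, in which at most 5.83% of all genes were called, so a count of 0 is near the background. In the knockdown comparison they ran from −0.44 to 0.50, with a median of −0.11. FKBP4, a relative that also binds HSP90, had 1297 and 1903.4 in shHSF1 Dox HSP990 against 1998.2 and 2301.3 in shHSF1 HSP990 (−0.44, SE 0.20, limma adjusted p = 0.333), and was the lowest of the 13. It lay at 1738.6 and 2151.9 in shNTC Dox DMSO and at 1814.2 and 1953.3 in shNTC DMSO.

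Among 12 tested genes of the chaperone cycle that loads the receptor, 2 were called lower in the knockdown comparison, beside 1.85% of all genes. These were the HSP40 genes DNAJB1 (−1.05, limma adjusted p = 0.0130) and DNAJA1 (−0.75, adjusted p = 0.0385). DNAJB1 was also called higher with the inhibitor (1.11, adjusted p = 0.0407), where 0.221% of all genes were called. The DNAJB1 knockdown call was lost with 4 of the 8 arrays left out in turn and the DNAJA1 call with 6 of the 8, the highest adjusted p being 0.124 and 0.223. The DNAJB1 inhibitor call was lost with 6 of 8 as well, at adjusted p up to 0.605. The mean of all its probe sets gave −1.65 (limma adjusted p = 0.00117) for the knockdown and 1.74 (adjusted p = 0.00397) with the inhibitor. For DNAJA1 that mean gave −0.92 (adjusted p = 0.0134) for the knockdown. Neither gene was called in shHSF1 Dox HSP990 against shNTC Dox DMSO, where 0 of the 12 were, beside 5.83% of all genes. The 11 tested coregulators of the receptor, which include NCOA2 and CREBBP, gave 0 calls in each comparison. So did the 2 tested genes among other steroid receptors and steroid activating enzymes. At most 5.83% of all genes were called in a comparison, so these counts of 0 are near the background. NR3C2, the related mineralocorticoid receptor, was below the test's filter, as was HSD11B1, whose product regenerates active cortisol.

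Relatives of the target members gave a different picture for 1 gene. CRISPLD1, the paralogue of CRISPLD2, had 44.2 and 28.5 in shHSF1 Dox HSP990, 193.5 and 147 in shHSF1 HSP990, 249.3 and 174.7 in shNTC Dox DMSO, and 187.1 and 182.5 in shNTC DMSO. Its knockdown arrays lay below all 6 others, as for FKBP5, whereas CRISPLD2 was highest on those 2 arrays. CRISPLD1 fell by 1.84 (SE 0.24, limma adjusted p = 0.00320) in the knockdown comparison and by 2.12 (SE 0.24, adjusted p = 0.00110) relative to shNTC Dox DMSO, and both calls held with each of the 8 arrays left out in turn. It was the only one of 10 tested paralogues called in the first comparison, in which 1.85% of all genes were called lower.

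Relative to shNTC Dox DMSO, 3 further paralogues were called lower in shHSF1 Dox HSP990, beside 2.99% of all genes. KLF6 had 624.6 and 542.6 in shHSF1 Dox HSP990 against 1227.9 and 1011.4 in shNTC Dox DMSO (−0.92, limma adjusted p = 0.00762). TSC22D1 had 1090.1 and 856.3 in shHSF1 Dox HSP990 against 1688.7 and 2050.8 in shNTC Dox DMSO (−0.93, adjusted p = 0.0175), and the mean of all its probe sets gave −0.13 (adjusted p = 0.592). PER3, a paralogue of PER1, had 13.8 and 12.2 in shHSF1 Dox HSP990 against 40.6 and 29.4 in shNTC Dox DMSO (−0.81, adjusted p = 0.0467), and the mean of all its probe sets gave −0.16 (adjusted p = 0.452). KLF6 and TSC22D1 had signals in shHSF1 HSP990 close to those under knockdown (623.0 and 648.1 for KLF6, 1149.5 and 875.6 for TSC22D1), with knockdown changes of −0.12 and −0.054. The call was lost without replicate 2 of shHSF1 Dox HSP990 for all 3, and without replicate 2 of shNTC Dox DMSO for TSC22D1 and PER3. The highest adjusted p with 1 array left out was 0.0663 for KLF6, 0.140 for TSC22D1 and 0.204 for PER3.

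Of 12 tested clock genes that work with PER1, 2 were called lower in that comparison, PER3 and CLOCK, beside the same 2.99%. In the other 3 comparisons 0 were called, near the background, since at most 2.84% of all genes were called there. CLOCK, whose product drives PER1 transcription, had 293.7 and 223.9 in shHSF1 Dox HSP990 against 440.4 and 533.3 in shNTC Dox DMSO (−0.88, SE 0.18, limma adjusted p = 0.0177). It also lost the call without replicate 2 of either of these groups (highest adjusted p = 0.128).

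The genes whose levels were most like FKBP5 over the 8 arrays were found among 523 genes whose group means spanned at least 1 on the log2 scale. They were JAZF1 (Pearson r = 0.988), HMGN3 (0.984), FSTL1 (0.984), C21orf91 (0.983) and KIF20B (0.983). JAZF1 is a zinc finger protein, HMGN3 binds nucleosomes, FSTL1 is a secreted glycoprotein and KIF20B is a kinesin of cell division. HMGN3 had 330.1 and 414 in shHSF1 Dox HSP990, 1288 and 1464.3 in shHSF1 HSP990, 1379.2 and 1586.2 in shNTC Dox DMSO, and 1334.7 and 1381.6 in shNTC DMSO. All 5 were low on the same 2 arrays as FKBP5, at −1.85 to −0.98 relative to shHSF1 HSP990. The 8 points are 2 low and 6 high arrays, so that each r mainly says that a gene was low in 1 group, and the correlations are a description. None of the 5 is a member or in the lists of receptor targets.

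**Figure D4:**
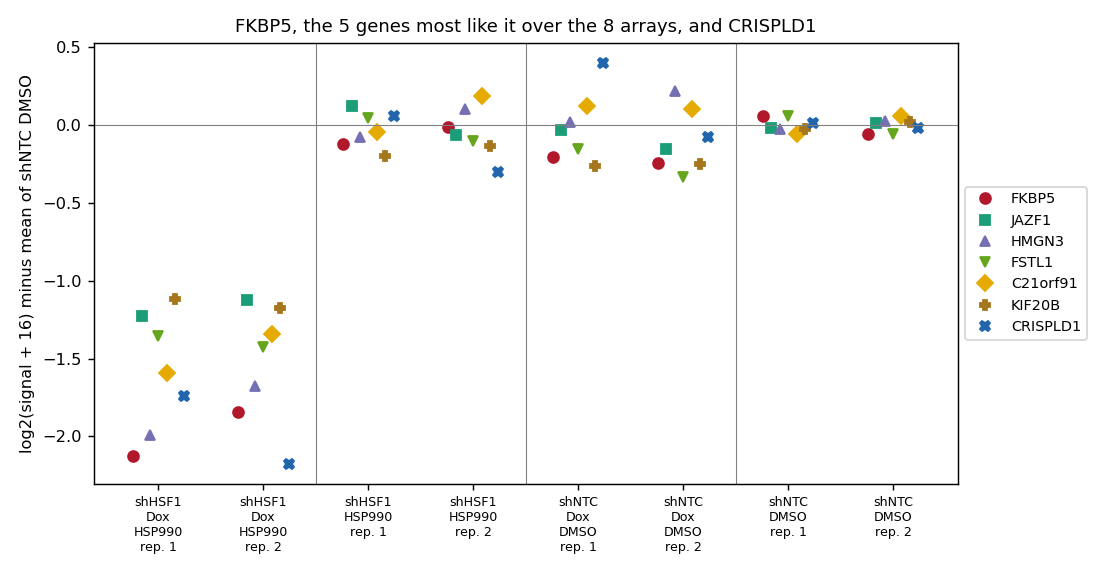
Level of FKBP5, of the 5 genes most like it and of CRISPLD1 on each of the 8 arrays, as log2(signal + 16) minus the gene's mean in shNTC DMSO (vertical axis), with 1 symbol per gene. All 7 genes sit at least 1 unit below 0 on the 2 arrays of shHSF1 Dox HSP990 and within about 0.5 of 0 on the other 6.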

How the data were processed

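RNA of 8 A375 samples was hybridised to Affymetrix HG-U133 Plus 2.0 arrays. The values used are the intensity values that the authors deposited, MAS5 signals on a linear scale, which were scaled on each array to a trimmed mean of 150 (2% left out at each end, checked on the values). Array medians were 10.6 to 14.2. The number of arrays limits the precision. Of 54675 probe sets, 41091 had 1 gene symbol in the platform annotation, 1801 several and 11721 none, and 62 were controls.

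Changes were computed as log2(signal + 16) with limma 3.58.1 in R 4.3.3, with the brightest probe set per gene, in 1 fit of the 4 groups (4 residual degrees of freedom, intensity trend). Two-sided p-values were adjusted over the 12672 tested genes (Benjamini-Hochberg), with calls made below 0.05. The fit was tested on simulated data. The members and lists were chosen with earlier results of these data known. In each list, called genes were named up to the 4 with the largest change, plus FKBP4. Further called genes, HSPA6 and the lowest values were named after their values were seen. Alternatives changed the added value, filter, scaling, probe set rule and test, and left out each array in turn.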

Additional observations from a re-analysis of the deposited data

How the results depend on the processing

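FKBP5 was lower in the knockdown comparison under all 22 alternatives (−2.06 to −1.20 on the log2 scale) and against shNTC Dox DMSO (−1.91 to −1.10), values given as a description since they chose it or share its arrays. Many of the alternatives, such as those of the filter, the test, the replicate block and the fold minimum, leave the log2 difference itself unchanged. The methods' t-test after Benjamini-Hochberg adjustment called 0 members and 0 genes in each comparison. Before adjustment that test called 1413 genes for the knockdown, 699 for the inhibitor, 588 for Doxycycline and 1335 for the knockdown with inhibitor against shNTC Dox DMSO. In the same order without Doxycycline, leaving the dim genes in gave 221, 16 and 450 calls, and the fold minimum of 2 gave 207 for the knockdown and 356 for the last. The 4 arrays of the knockdown comparison alone gave 95. With 1 array left out, the counts ran from 123 to 380, from 5 to 30 and from 263 to 802. With the replicate block they were 752, 44 and 1237, no member beyond FKBP5 was called, and KLF9 came to an adjusted p of 0.0612 in the knockdown comparison. The titles call each second array a repeat and name no shared batch or day, so the numbers were not taken to pair the arrays, whose deviations correlated at 0.685, 0.276, 0.464 (Doxycycline) and 0.0156. Small changes turned sign: TSC22D3 with Doxycycline (0.020 for the mean of its probe sets) and NR3C1 against shNTC Dox DMSO (−0.021 with median centring). With 1 array left out, ranges crossed 0 for NR3C1 (−0.20 to 0.071 with the inhibitor, −0.054 to 0.23 with Doxycycline, −0.11 to 0.17 against shNTC Dox DMSO), KLF9 (−0.45 to 0.11 with the inhibitor, −0.99 to 0.35 with Doxycycline), CRISPLD2 (−0.0073 to 0.44 and −0.15 to 0.30) and SGK1 (−0.097 to 0.017 with Doxycycline). Signals near the array median, as for TSC22D3 and CRISPLD2, and 2 arrays a group limit what could be detected.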
